A study of Mus musculus with 4 samples.

Results

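The responses of RAW 264.7 cells to osteoclast-inducing cytokines were compared between cells that carried a miR-155 vector and cells that carried a control vector. For each gene, the log2 value of the unstimulated array was subtracted from that of the stimulated array within each vector, and the control response was then subtracted from the miR-155 response. All 19938 genes that the array annotation names by 1 gene symbol entered, each through its probe set with the highest mean, and 13561 of them lay above a floor of 4.25 (log2) on at least 1 array. The floor is the 95th percentile of 1212 olfactory and vomeronasal receptor probe sets, whose genes are not known to be active in such cells. RAW 264.7 is an established mouse macrophage-like line. The 4 groups were control-vector cells left unstimulated, control-vector cells given RANKL and M-CSF for 72 h, miR-155-vector cells left unstimulated, and miR-155-vector cells given RANKL and M-CSF for 72 h. The stated dose is 20 ng/ml, and it is not said whether each cytokine had that dose. The controls are described as wild-type in the series text and as carrying a control vector in the sample descriptions. Each group had 1 array, so no difference has a replicate check and the difference of the responses cannot be tested. Precision is limited by having so few arrays.

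RANKL binds its receptor RANK on macrophage-lineage cells and, through TRAF adaptors, NF-kB, AP-1 and NFATc1, turns on the genes of bone resorption, while M-CSF supports survival and growth of the precursors. Differentiating cells leave the cell cycle, fuse, build a sealing zone on bone and secrete acid and proteases beneath it, and many genes of macrophage defence are shut off on the way. miR-155 is a microRNA induced in activated macrophages, which lowers its target transcripts mainly by pairing through its seed.

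The vector expresses miR-155, and its mature 5p arm is shown with the seed, bases 2 to 8, in capitals, because it is the arm by which miR-155 is best known; which arm the vector's cells made was not measured. RefSeq places it on the plus strand of GRCm38.p6 at chr16:84714143-84714165, within the hairpin gene Mir155.
miR-155-5p: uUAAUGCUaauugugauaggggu
The probe set named Mir155 was under the floor everywhere, at 3.72 and 3.61 in control cells before and after stimulation and at 3.58 and 3.73 in miR-155 cells. The arrays therefore gave no check of the vector label.

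The stimulated control array stood apart from the other 3. Over the genes above the floor it correlated at 0.908 to 0.937 with the others, which correlated at 0.982 to 0.989 among themselves. Every difference of responses rests on that array, and no second stimulated control array can stand in for it. The line and its differentiation could be checked on marker genes. The 10 osteoclast markers had a median level of 5.57 and 11.05 (log2) in control cells before and after stimulation, and 5.01 and 9.56 in miR-155 cells. The 10 macrophage markers stood at 10.59 and 6.88 in control cells and at 10.75 and 10.38 in miR-155 cells. Stimulated miR-155 cells thus had high medians of both marker sets, and in RNA from whole cultures a lower number of cells of a type and less RNA per cell cannot be told apart. Markers of other cell types had low medians on all 4 arrays. The medians of T and B cell markers lay between 3.92 and 4.07 and those of granulocyte and mast cell markers between 3.84 and 3.98. Those of fibroblast and osteoblast markers lay between 4.66 and 4.72 and those of dendritic cell markers between 4.20 and 4.63. Not every member was dim. The highest dendritic cell marker value was 12.88 and 12.75 in control cells and 12.99 and 12.79 in miR-155 cells. Above the floor on at least 1 array were 8 of 14 dendritic cell markers and 11 of 16 fibroblast and osteoblast markers.

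Stimulation moved far fewer genes in miR-155 cells than in control cells. In control cells 777 genes (5.73%) were higher and 939 (6.92%) lower by over 2-fold after stimulation. In miR-155 cells 156 (1.15%) were higher and 25 (0.184%) lower. The difference of the responses was past 2-fold for 1528 genes, 899 of them (6.63%) with a higher and 629 (4.64%) with a lower response in miR-155 cells. These differences share the arrays of both responses, so the counts are not independent of one another. As a measure of noise near the floor, the difference of the responses of the receptor probe sets had an SD of 0.31. It stayed under 0.64 for 95% of them, with 9 of 1212 past 2-fold, whereas over all genes above the floor its SD was 0.70. Between 2 probe sets above the floor of the same gene, the differences of responses disagreed with an SD of 0.44. The gap stayed under 0.98 for 95% of 718 such genes, with 33 past 2-fold. Of 81 genes past 2-fold that had a second probe set above the floor, 80 had a difference of the same sign in it.

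**Figure D1:**
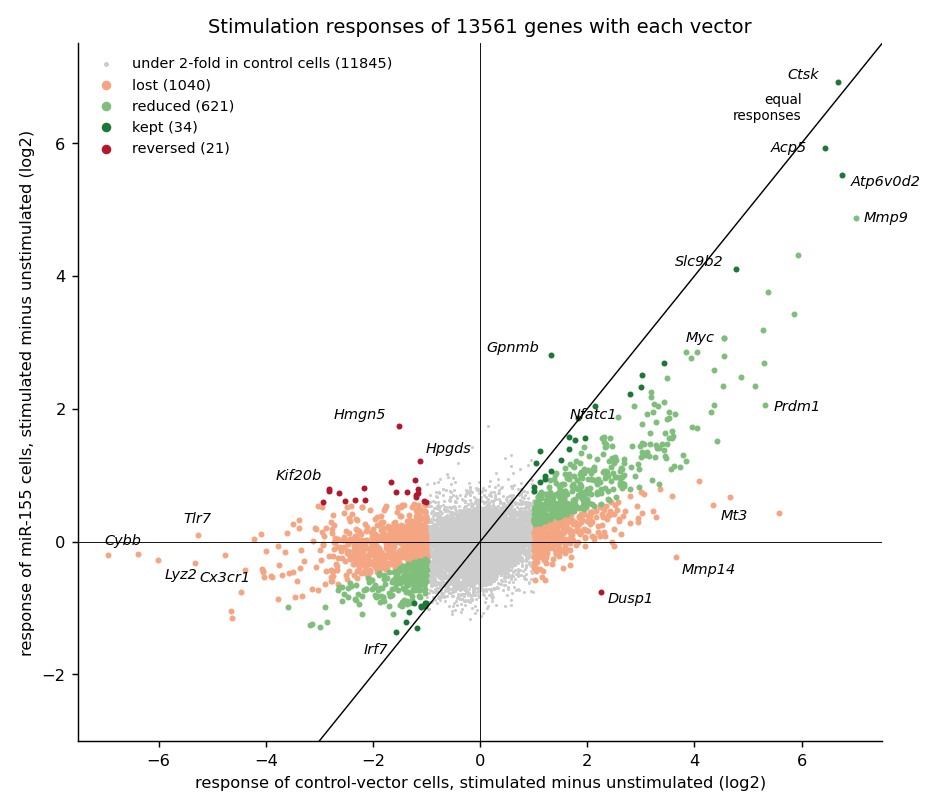
Each point is 1 gene above the floor, with the response of control-vector cells on the x axis and that of miR-155 cells on the y axis, both as stimulated minus unstimulated (log2). Colours give the class among the genes past 2-fold in control cells and the diagonal line marks equal responses. Ctsk and Acp5 lie near the line and Atp6v0d2 lies below it. Cybb, Lyz2 and Mmp14 lie near 0 on the y axis, as do most coloured points on the left.

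Genes past 2-fold in control cells were put in 4 classes by the share of the control response seen in miR-155 cells. A response was kept at 75% or more of the control response, reduced between 25% and 75%, reversed when it was past 1.5-fold in the opposite direction, and lost otherwise. Of the 777 genes higher in stimulated control cells, 24 (3.09%) kept the response, 399 (51.4%) had a reduced one, 353 (45.4%) lost it and 1 (0.129%) reversed it. Of the 939 lower genes, 10 (1.06%) kept it, 222 (23.6%) had a reduced one, 687 (73.2%) lost it and 20 (2.13%) reversed it. Induction was therefore retained in part more often than repression. The median gene retained 27.6% of its control response among the higher genes and 9.91% among the lower genes, and 687 of 777 (88.4%) against 641 of 939 (68.3%) moved in the control direction at all. Because these genes were chosen on the control response, which is also the denominator of the share, the shares are pulled down. With genes chosen on the mean of both responses instead, 265 of the higher genes were reduced and 85 lost, and 89 of the lower genes were reduced and 230 lost. Class counts of the gene lists below are to be read beside the shares of all 777 higher and all 939 lower genes.

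The share retained grew with the size of the induction and did not do so for repression. Among higher genes the median share was 20.8% where the control response was 1 to 1.5 (log2), 28.0% at 1.5 to 2, 33.3% at 2 to 3 and 46.6% above 3. Among lower genes it was 13.6%, 9.40%, 6.56% and 10.1% over the same ranges. The strongest inductions thus retained the largest median share, although 11 of these 83 genes were lost. The 46 strongest repressions retained a share as low as that of the weaker ones. The control response that groups the genes is also the denominator of the share. A larger share did not mean a smaller difference of responses: Mmp9, with 69.5% retained, had a difference of -2.14.

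**Figure D2:**
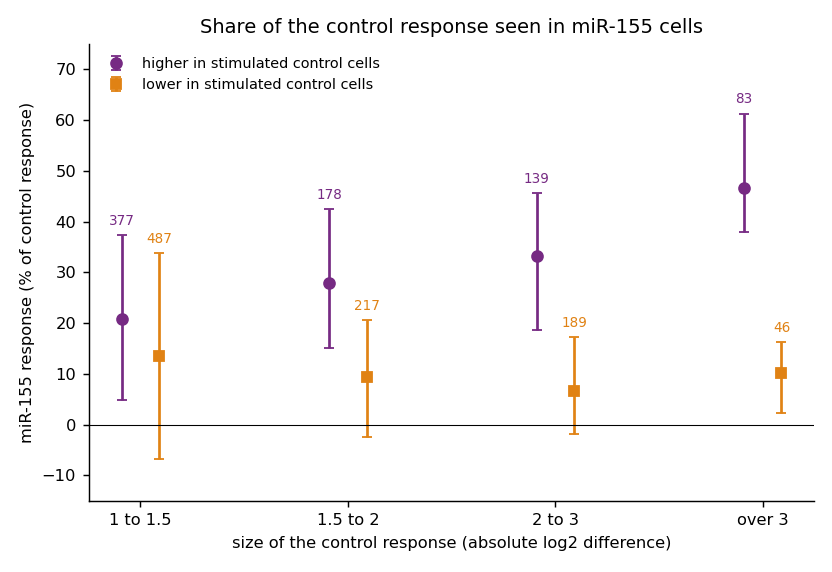
Median share of the control response seen in miR-155 cells (percent, y axis) by the absolute size of the control response (log2, x axis), for genes higher and genes lower in stimulated control cells; bars run from the 25th to the 75th percentile over genes and the digits give the number of genes. The circles climb from 20.8% to 46.6%, while the squares stay between 6.56% and 13.6%.

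Most of the difference lay in the stimulated state. Of the 1528 genes past 2-fold, 1442 (94.4%) had the larger gap between the vectors on the stimulated arrays. The vectors differed by over 2-fold for 1128 of them with stimulation and for 44 without. In 28 genes the gap was past 2-fold without stimulation and under 1.5-fold with it, with 26 lower and 2 higher in unstimulated miR-155 cells. Bhlhe41, a transcriptional repressor, is of this kind: its levels were 7.47 and 4.98 in control cells before and after stimulation and 5.32 and 4.75 in miR-155 cells. Unstimulated miR-155 cells already stood near the level that control cells reached after stimulation. Mcoln2, a lysosomal cation channel, read 7.34 and 5.44 in control cells and 5.08 and 4.88 in miR-155 cells. Fnip2, a partner of folliculin, read 10.17 and 9.10 against 8.44 and 8.63. Pxdn, a matrix peroxidase, went the other way, at 5.55 and 6.91 in control cells and 6.58 and 6.82 in miR-155 cells.

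A few genes of bone resorption, Ctsk, Acp5, Atp6v0d2 and Slc9b2, kept their response, while most induced members of their lists did not. Ctsk encodes cathepsin K, the protease that cuts bone collagen. Its level was 6.72 and 13.40 in control cells before and after stimulation and 4.26 and 11.18 in miR-155 cells. Both vectors thus gave a steep induction, 103-fold in control and 121-fold in miR-155 cells, from a lower start and to a lower end with miR-155. The miR-155 start of 4.26 lay just above the floor of 4.25, so the 121-fold and the retained share rest on a value near background. On the linear scale the step of Ctsk was the smaller one in miR-155 cells, so the sign of its small difference of responses turns with the scale. Acp5, the tartrate-resistant acid phosphatase used as the osteoclast stain, stood at 6.54 and 12.97 in control cells and at 6.17 and 12.10 in miR-155 cells, or 92.2% of the control response. Atp6v0d2, a proton pump subunit needed for fusion, stood at 5.46 and 12.21 against 4.48 and 10.00, with 81.7% retained. Its difference of responses was still past 2-fold downward, at -1.24, which held for 1 of the 24 kept higher genes. Slc9b2, a sodium/proton antiporter, stood at 5.45 and 10.23 against 4.90 and 9.0, with 85.9% retained. In each of these 4 genes the miR-155 array was below the control array in both states, so a retained response did not mean an equal level. Across the 24 kept higher genes, 23 (95.8%) were lower in miR-155 cells without stimulation, against 431 of all 777 (55.5%), although that array also sets the miR-155 response.

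The other kept inductions belonged to varied functions. Jdp2, an AP-1 family repressor that acts in osteoclast formation, had responses of 3.01 in control and 2.33 in miR-155 cells. The semaphorin receptor Plxnd1 had responses of 3.02 and 2.51, and the semaphorin Sema7a 2.79 and 2.21. Eno3, a glycolytic enolase, gave 1.82 and 1.86, the nearest to equal among the higher genes named. Coq8a, which serves coenzyme Q synthesis, gave 2.15 and 2.04, and the membrane protein Tmem204 gave 3.43 and 2.69. Gpnmb, a transmembrane glycoprotein under control of Mitf, was the 1 kept higher gene whose difference of responses was past 2-fold upward. Its level was 11.67 and 12.99 in control cells and 7.49 and 10.29 in miR-155 cells, so that its log2 response was 212% of the control one while its level was the lower one in both states. On the linear scale the sign of that difference turns, since its control start was far higher and the smaller log2 step there spanned more signal.

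Matrix enzymes split between classes. Of the 8 matrix-degrading genes above the floor, 5 were past 2-fold in control cells, and of these 2 (Ctsk and Acp5) kept, 1 reduced and 2 lost the response. The list median went from 2.89 in control to 0.13 in miR-155 cells, which puts the list among the lost ones and hides this split. Mmp9, the gelatinase of osteoclasts, had levels of 5.12 and 12.14 in control cells and of 4.59 and 9.46 in miR-155 cells, with 69.5% of the response retained. Mmp14, the membrane-bound collagenase, had the lowest difference of responses of all genes with 4 values above the floor, -3.89. It read 4.95 and 8.60 in control cells and 5.26 and 5.03 in miR-155 cells, so that only the stimulated control array was high. Timp2, the metalloproteinase inhibitor that binds Mmp14, showed the same pattern at 5.31 and 7.43 against 4.79 and 4.82.

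Genes of acid secretion had a reduced response more often than a lost one. The 22 V-ATPase subunits, which make up the proton pump of lysosomes and of the resorption space, had a median response of 1.48 in control and 0.46 in miR-155 cells, or 31.4% of the control median. Of the 15 subunits past 2-fold in control cells, 2 kept the response, 12 had a reduced one and 1 lost it. Atp6v1b2 joined Atp6v0d2 in the kept class, at 11.30 and 13.08 in control cells and 10.80 and 12.33 in miR-155 cells. Atp6v1h had the largest difference of the list, -1.34, with levels of 8.47 and 10.32 against 8.30 and 8.81. The 16 genes of acid and chloride transport had medians of 1.35 and 0.45. Car2, the carbonic anhydrase that supplies the protons, had responses of 4.54 and 3.06, and the bicarbonate exchanger Slc4a2 had 3.28 and 1.45. Snx10, a sorting nexin required for the ruffled border, lost its response at 2.43 against 0.46.

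Most of the fusion and sealing zone genes that were induced in control cells had a reduced response. Of the 15 fusion genes, 5 were past 2-fold higher in control cells, with 1 kept, 3 reduced and 1 lost, and the list medians were -0.03 in control and 0.07 in miR-155 cells. Dcstamp and Ocstamp, the membrane proteins required for precursor fusion, had responses of 4.54 and 5.28 in control cells and of 3.06 and 3.18 in miR-155 cells. Of the 38 podosome, sealing zone and integrin genes, 12 were past 2-fold higher in control cells, of which 9 were reduced, 3 lost and 0 kept. The integrin chain Itgb3 read 5.32 and 8.94 in control cells and 5.30 and 6.44 in miR-155 cells. Its partner Itgav read 8.13 and 11.66 against 8.40 and 9.96, and the kinase Src, which organises the sealing zone, 5.89 and 10.25 against 5.68 and 8.26. For these genes the unstimulated arrays were close and the gap lay between the stimulated arrays. All 4 inductions past 2-fold among the 22 genes of ITAM receptors and Syk signalling were reduced, with Oscar, the collagen-binding costimulatory receptor, at 5.85 and 3.43, Siglec15 at 3.60 and 1.59 and Syk at 1.61 and 0.71.

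Transcription factors of the osteoclast programme fell into different classes. Nfatc1, the master factor downstream of RANK, stood at 8.30 and 10.63 in control cells and at 8.27 and 9.69 in miR-155 cells, with 60.9% retained. Its target Rcan1, a calcineurin inhibitor, had responses of 3.06 and 1.48. Myc retained most of its induction at 5.03 and 9.07 against 5.41 and 8.26, or 70.6%. Prdm1, which encodes the repressor Blimp-1 that silences macrophage genes during osteoclast formation, stood at 3.94, below the floor, and 9.25 in control cells, and at 4.38 and 6.44 in miR-155 cells. Its induction was at least 32.0-fold in control cells, with 38.7% of the measured log2 response retained. Irf8, a restraint on osteoclast formation that Blimp-1 represses, stood at 8.54 and 6.21 against 8.87 and 8.01, with 37.1% of its repression retained. Among the AP-1 factors Fosl2 had responses of 3.47 and 1.26, whereas Fos read 7.47 and 9.29 in control cells and 8.0 on both miR-155 arrays. Fos was thus lost, as was Junb with responses of 1.05 and -0.27. Spi1, which encodes PU.1, had responses of 0.96 and -0.20.

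Feedback inhibitors of NF-kB were among the genes that lost their induction. Over the 26 genes of RANK, TRAF and NF-kB signalling the median response was 0.91 in control and 0.07 in miR-155 cells. Of the 11 past 2-fold, 2 were kept, 3 reduced and 6 lost, against 3.09%, 51.4% and 45.4% of all 777 higher genes. Tnfaip3, which encodes the feedback inhibitor A20, stood at 6.48 and 9.04 in control cells and at 6.52 and 6.99 in miR-155 cells. Nfkbia, the inhibitor of NF-kB alpha, stood at 9.61 and 11.33 against 9.77 and 10.09, and the adaptor gene Traf5 had responses of 1.54 and 0.13. The kept genes were the p62 scaffold Sqstm1, with responses of 1.20 and 0.99, and Tank, a TRAF-binding regulator, with 1.12 and 0.89. No member of the list had a difference of responses past 2-fold upward, and 8 had one past 2-fold downward, against 6.63% and 4.64% of all genes.

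Mitochondrial lists showed small median responses in control cells and smaller ones in miR-155 cells. The 43 oxidative phosphorylation subunits had a median response of 0.69 in control and 0.12 in miR-155 cells, and the 25 genes of the TCA cycle and pyruvate entry 0.63 and 0.10. Only 4 and 3 of them were past 2-fold higher in control cells, so the lists are described by their medians. All 4 of the oxidative phosphorylation subunits were reduced, and of the 3 TCA cycle genes 1 was reduced and 2 were lost. The 34 genes of mitochondrial biogenesis and the mitochondrial ribosome had medians of 0.10 and -0.01, and 1 of them was past 2-fold higher in control cells. That gene, Ppargc1b, a coactivator of mitochondrial biogenesis in osteoclasts, lost its response and read 7.30 and 8.89 in control cells and 7.08 and 6.91 in miR-155 cells. Sdhc, a succinate dehydrogenase subunit, read 9.79 and 10.64 against 10.09 and 9.83. Among the 38 lysosomal genes 8 were past 2-fold higher, of which 4 were reduced and 4 lost. The hexosaminidase gene Hexa retained 45.3% and the sphingomyelinase gene Smpd1 41.0%, whereas the arylsulfatase gene Arsb read 8.70 and 11.33 in control cells and 9.29 and 9.41 in miR-155 cells.

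**Figure D3:**
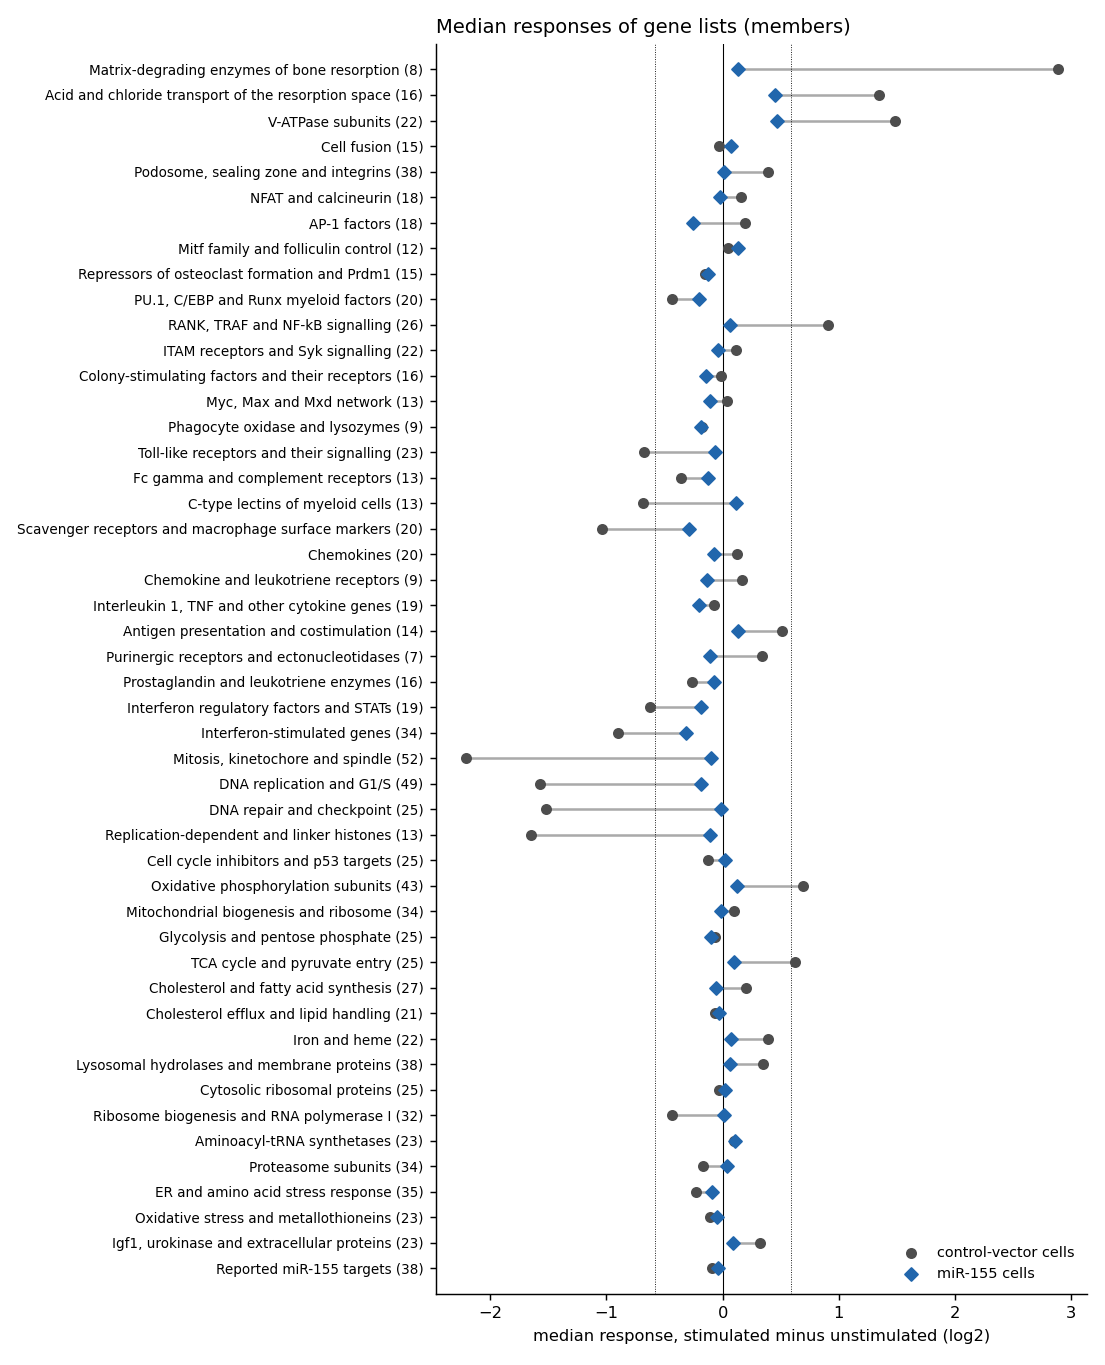
Median response (log2, x axis) of the members above the floor of each gene list, in control-vector cells (circles) and in miR-155 cells (diamonds); the number of members stands in brackets and the dotted lines mark 1.5-fold. The circle of the mitosis list lies at -2.21 and its diamond at -0.10, and no diamond lies outside the dotted lines.

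Large inductions were also lost outside these lists. Mt3, a brain-type metallothionein, read 6.61 and 10.95 in control cells and 6.24 and 6.79 in miR-155 cells. Efr3b, a membrane scaffold for lipid kinase, had responses of 3.58 and 0.69, the transporter gene Slc45a3 3.28 and 0.36, and Adcy3, an adenylate cyclase, 3.0 and 0.74. Among signalling ligands of the induced set, reduced responses were seen for Hbegf, an EGF-family growth factor, at 3.84 and 1.22, and for Pdgfb, the platelet-derived growth factor that osteoclast precursors secrete, at 3.0 and 1.27.

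Several macrophage defence genes lost almost all of their repression. Cybb, the catalytic subunit of the phagocyte oxidase, had the highest difference of responses, 6.74. It stood at 12.21 and 5.26 in control cells and at 12.08 and 11.87 in miR-155 cells, so only the stimulated control array was low. The lysozyme genes Lyz1 and Lyz2 had differences of 6.20 and 5.74 and the same pattern. They are near-identical copies whose probe sets may read each other, so they count as 1 observation. Cx3cr1, the fractalkine receptor of resident macrophages, stood at 10.32 and 5.0 against 10.84 and 10.51. Adgre1, which encodes the F4/80 antigen, stood at 9.26 and 4.88 against 8.35 and 7.92. Not every oxidase gene took part: of the 9 genes of the oxidase and lysozyme list, 4 were past 2-fold lower in control cells. All 4 were lost, a count that holds both lysozyme genes. The list medians were -0.18 in control and -0.19 in miR-155 cells. These medians depend on which members count as measured: they were -1.62 and -0.19 with the floor at the 99th percentile, and -0.87 and -0.16 after lowess.

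Pattern receptors followed the same course. Of the 23 genes of Toll-like receptors and their signalling, 10 were past 2-fold lower in control cells, of which 9 lost and 1 reduced the response, and their medians were -0.67 in control and -0.07 in miR-155 cells. Tlr13, a receptor for bacterial ribosomal RNA, stood at 8.76 and 4.68 in control cells and at 8.02 and 8.13 in miR-155 cells. Tlr7, a receptor for single-stranded RNA, was below the floor on the stimulated control array alone, which makes its control response at least 19.7-fold, and had a miR-155 response of 0.10. Cd14, the lipopolysaccharide co-receptor, had responses of -4.06 and -0.42. The C-type lectins Clec4e and Clec4d, which sense mycobacterial glycolipid, had responses of -4.22 and -3.61 in control cells and of 0.04 and 0.12 in miR-155 cells. Clec5a, a lectin that signals through Dap12, reversed at -2.15 and 0.63. Of the members higher in stimulated control cells, Clec2d kept 84.2% of the response and Clec4a2 retained 51.7%.

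Most repressed scavenger receptors and other surface markers of macrophages lost their repression. Over the 20 genes of the list the median response was -1.04 in control and -0.29 in miR-155 cells, 28.1% of the control median. Of the 10 members past 2-fold lower, 7 were lost and 3 reduced, and the median member among them retained 8.01% of its control response. This is close to all 939 lower genes, of which 73.2% were lost and 23.6% reduced, with a median of 9.91% retained. The fatty acid transporter Cd36 stood at 11.55 and 8.17 in control cells and at 11.51 and 11.72 in miR-155 cells, and the pore-forming protein Mpeg1 at 10.58 and 7.24 against 9.39 and 9.26. Siglec1, the sialoadhesin, retained 53.7%. Among lipid mediator genes Alox5ap, which presents arachidonate to 5-lipoxygenase, was lost at responses of -3.75 and -0.36, while Alox5 itself was reduced at -1.86 and -0.70. Igf1, a growth factor made by macrophages, read 8.22 and 4.44 in control cells and 7.18 and 7.11 in miR-155 cells. The chemokine gene Ccl3 was higher with stimulation in both vectors, with responses of 1.12 and 1.36, and was thus kept, and Ccl9 was reduced at 1.87 and 1.02.

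Interferon-stimulated genes retained part of their repression. The 34 interferon-stimulated genes had a median response of -0.90 in control and -0.32 in miR-155 cells, or 35.2% (28.2% with the floor at the 99th percentile), and the 19 interferon regulatory factors and STATs -0.63 and -0.18. Of the 16 interferon-stimulated genes past 2-fold lower, 2 were kept, 6 reduced and 8 lost, against 10, 222 and 687 of all 939 lower genes. Irf7, the amplifier of type I interferon production, stood at 8.29 and 6.72 in control cells and at 8.72 and 7.36 in miR-155 cells, with 87.0% retained. Oas3, a sensor enzyme of viral RNA, stood at 8.62 and 7.28 against 9.08 and 8.01, and Cmpk2, a mitochondrial nucleotide kinase, at 5.51 and 4.39 against 5.91 and 4.94. In these 3 genes the miR-155 arrays were the higher ones in both states. The stimulated control value of Cmpk2 lay near the floor of 4.25. Of the 10 kept lower genes, 9 had control responses of only 1 to 1.5 (log2). Usp18, which removes the ubiquitin-like Isg15, lost its response, at 7.21 and 4.89 against 7.27 and 6.94, and Trim30a did so at -2.0 and -0.34. The remaining kept repressions named were the myeloid factor Cebpa, at -1.38 and -1.20, the chaperone of Toll-like receptors Cnpy3, at -1.03 and -0.97, the AT-hook factor Akna, the cofactor Ldb1, the factor Nfic, the membrane contact protein Esyt1 and the kinetochore protein Pmf1, which had control responses between -1.23 and -1.01.

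The promoters of Oas3 and Trim30a are shown because the first kept and the second lost its repression within the same list. They are windows of 300 bases around the start site from RefSeq (GRCm38.p6), Oas3 on the minus strand at chr5:120777610-120777909 and the first of the Trim30a promoters on the minus strand at chr7:104446076-104446375. Capitals mark matches, on either strand, to any of 6 motifs: the interferon response element core GAAANNGAA, the CCAAT box CCAAT, the cell cycle homology region (CHR) TTTGAA, the E2F sites TTTCGCGC and TTTGGCGC, the E-box CACGTG and the AP-1 site TGANTCA. Matches of different motifs could overlap.
Oas3: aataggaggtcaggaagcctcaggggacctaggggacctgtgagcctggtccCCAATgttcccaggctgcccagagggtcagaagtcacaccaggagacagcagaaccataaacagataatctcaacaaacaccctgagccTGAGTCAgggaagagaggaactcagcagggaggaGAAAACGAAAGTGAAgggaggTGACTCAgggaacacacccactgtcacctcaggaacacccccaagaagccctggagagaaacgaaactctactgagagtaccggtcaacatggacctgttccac
Trim30a: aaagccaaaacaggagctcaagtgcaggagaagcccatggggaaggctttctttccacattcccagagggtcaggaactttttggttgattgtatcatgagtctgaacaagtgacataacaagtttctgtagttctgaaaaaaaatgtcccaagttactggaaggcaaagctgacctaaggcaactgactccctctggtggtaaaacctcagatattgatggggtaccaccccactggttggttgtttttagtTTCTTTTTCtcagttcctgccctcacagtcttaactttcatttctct
The interferon core was found in 13 of 31 promoters (41.9%) of the interferon-stimulated genes and in 8.56% of all 32851 promoters of that length. Among promoters of genes above the floor the share was 6.77%. Both sequences hold it, 2 copies in Oas3 and 1 in Trim30a, so its presence did not separate the kept gene from the lost one. Usp18 and Parp14, with the largest differences of the list, have no entry in the promoter table.

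The repression of cell cycle genes was lost almost throughout. All but 1 of the 52 genes of mitosis, kinetochore and spindle were past 2-fold lower in stimulated control cells, and of these 51 genes 44 lost, 4 reduced, 3 reversed and 0 kept the response. The median response was -2.21 in control and -0.10 in miR-155 cells, and 50 of the 52 differences of responses were past 2-fold upward, against 6.63% of all genes. Mki67, the proliferation marker, stood at 10.21 and 7.26 in control cells and at 10.02 and 10.17 in miR-155 cells. Kif11, the spindle motor, stood at 8.89 and 5.82 against 8.67 and 8.86. Again the stimulated control array alone was low. The reduced members included Cdc25b, the phosphatase that starts mitosis, at responses of -1.78 and -0.64, and Ube2c, the ubiquitin-conjugating enzyme of mitotic exit, at -1.28 and -0.41. In miR-155 cells the median of the macrophage markers also changed little, at 10.75 and 10.38, whereas that of the osteoclast markers rose from 5.01 to 9.56. The part of cell composition in the mitosis genes was not tested.

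Replication genes behaved alike with a somewhat larger share retained. The 49 genes of DNA replication and G1/S had medians of -1.57 and -0.19, and of the 41 past 2-fold lower, 33 were lost and 8 reduced. Prim1, the primase subunit, read 7.88 and 5.17 in control cells and 7.79 and 7.77 in miR-155 cells, and Rrm2, the ribonucleotide reductase subunit, 9.58 and 7.10 against 9.58 and 9.44. Gins2 and E2f2 retained the largest shares, 61.6% and 60.2%. The 25 DNA repair and checkpoint genes had medians of -1.52 and -0.01, with the checkpoint kinase Chek1 at responses of -2.79 and 0.30. Xrcc5, which encodes the Ku80 end-binding protein, was higher in both vectors at 1.5 and 1.22. The 13 histone genes had medians of -1.64 and -0.11, and the linker histone gene H1f5 read 12.07 and 9.70 against 12.38 and 12.34. H2bc4 stood against the list, at 5.34 and 9.76 in control cells and 6.0 and 7.52 in miR-155 cells. Ccnd1, which encodes cyclin D1, was reduced at -2.44 and -0.63, and the retinoblastoma gene Rb1 was lost at -1.27 and 0.06.

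Promoters of the mitosis genes held the CHR and the CCAAT box more often than promoters at large. The 2 members with the largest differences of responses, Kif20b and Smc2, are shown with the primase gene Prim1 of the replication list. In GRCm38.p6 they lie on the plus strand, Kif20b at chr19:34922108-34922407, Smc2 at chr4:52438971-52439270 and Prim1 at chr10:128014965-128015264. Capitals mark the same 6 motifs as before.
Kif20b: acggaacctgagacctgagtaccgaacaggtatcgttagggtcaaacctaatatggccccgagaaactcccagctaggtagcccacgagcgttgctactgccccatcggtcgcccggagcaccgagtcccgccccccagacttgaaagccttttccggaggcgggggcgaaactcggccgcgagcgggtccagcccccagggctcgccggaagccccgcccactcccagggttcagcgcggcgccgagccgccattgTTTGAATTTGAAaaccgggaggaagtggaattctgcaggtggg
Smc2: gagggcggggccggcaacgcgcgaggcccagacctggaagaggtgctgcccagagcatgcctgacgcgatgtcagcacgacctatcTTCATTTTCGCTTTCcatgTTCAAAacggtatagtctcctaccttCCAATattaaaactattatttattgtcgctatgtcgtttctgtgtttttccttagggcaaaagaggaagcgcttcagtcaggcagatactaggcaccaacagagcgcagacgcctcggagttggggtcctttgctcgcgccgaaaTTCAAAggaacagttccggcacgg
Prim1: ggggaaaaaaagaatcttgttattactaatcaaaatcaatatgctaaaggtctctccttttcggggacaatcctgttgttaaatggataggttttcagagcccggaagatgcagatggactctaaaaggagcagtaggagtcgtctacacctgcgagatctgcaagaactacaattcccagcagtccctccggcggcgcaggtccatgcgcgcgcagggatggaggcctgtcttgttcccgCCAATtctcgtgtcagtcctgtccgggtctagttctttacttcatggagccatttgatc
The CHR was found in 35 of 47 mitosis promoters (74.5%) against 17.9% of all promoters, and the CCAAT box in 39 of 47 (83%) against 37.4%. The promoters of the replication list held the CHR in 15.7%, the CCAAT box in 58.8% and an E2F site in 25.5%, the last against 0.813% of all promoters. Kif20b holds 2 copies of the CHR and Smc2 2 copies with 1 CCAAT box and 2 overlapping matches of the interferon core, whereas Prim1 holds 1 CCAAT box alone. A match describes the letters of this window and is no measured binding site.

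**Figure D4:**
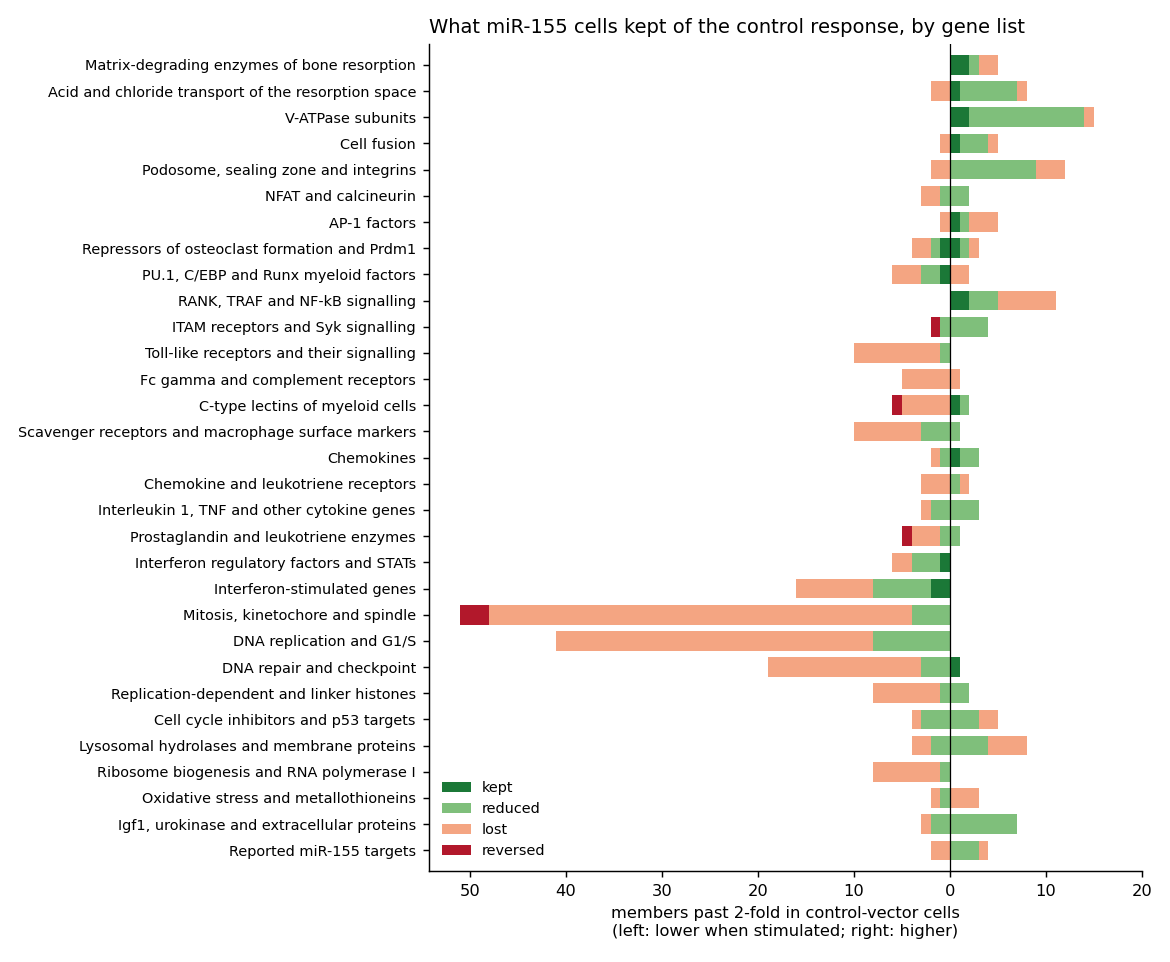
Number of list members past 2-fold in control-vector cells (x axis), to the left for genes lower and to the right for genes higher when stimulated, split by whether miR-155 cells kept, reduced, lost or reversed the response; lists with at least 5 such members are shown. The mitosis bar holds 44 lost, 4 reduced and 3 reversed members, and the V-ATPase bar 2 kept, 12 reduced and 1 lost.

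Few genes met the rule for a reversed response. Their number fell to 0 higher and 3 lower genes when genes were chosen on the mean of both responses. By the main rule, Dusp1, the phosphatase that switches off MAP kinases, was the 1 induced gene that reversed. It read 7.88 and 10.13 in control cells and 7.94 and 7.18 in miR-155 cells. The 20 reversed genes among those lower in control cells had median responses of -1.54 and 0.74. Hmgn5, a nucleosome-binding protein, had the largest opposite response, at 6.45 and 4.94 in control cells and 5.22 and 6.96 in miR-155 cells. Hpgds, the prostaglandin D synthase of haematopoietic cells, read 8.58 and 7.46 against 5.98 and 7.19. In both genes the miR-155 array was the lower one without stimulation and moved toward or past the control level with it. All 20 genes were lower in unstimulated miR-155 cells, 16 of them by over 1.5-fold, against 528 of all 939 lower genes (56.2%) on the plain sign, although that array enters the miR-155 response too. The mitotic motor genes Kif20b, at 7.67 and 4.86 against 6.96 and 7.73, and Cenpe, with responses of -2.52 and 0.60, were among them, as was the condensin gene Smc2 at -2.94 and 0.60. Chromatin genes in the set were Dek, a DNA-binding protein, at -2.82 and 0.80, the remodeller gene Atrx at -1.67 and 0.89, and the RecQ helicase gene Wrn at -1.16 and 0.80.

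Few genes responded in miR-155 cells alone. By the rule of past 2-fold in miR-155 and under 1.5-fold in control cells, 7 genes (0.0516%) were higher and 11 (0.0811%) lower. Of the 7 higher genes, 6 encode small nucleolar or Cajal body RNAs, which guide chemical modification of ribosomal and spliceosomal RNA. Snord49b read 7.29 and 7.44 in control cells and 7.69 and 9.43 in miR-155 cells. Snord82 read 5.66 and 5.51 against 6.11 and 7.53, and Snord16a 7.96 and 8.53 against 9.03 and 10.33. The stimulated miR-155 array was the highest of the 4 for each. Over all 49 genes of this kind above the floor, a group formed after these values were seen, the median response was -0.06 in control and 0.46 in miR-155 cells. In miR-155 cells 20 of the 49 were past 1.5-fold higher and 0 lower, against 6 higher and 11 lower in control cells. Over all genes above the floor, miR-155 cells had 3.43% rising and 3.73% falling by over 1.5-fold, and control cells 12.3% and 15.1%. Without the 6 genes that led to the group, 14 of 43 were past 1.5-fold higher in miR-155 cells and the medians were -0.08 and 0.39. Many such RNAs lie in introns of host genes, whose probe sets were not compared here. The lower genes included Cic, a transcriptional repressor, at 8.45 and 8.48 in control cells and 8.55 and 7.43 in miR-155 cells, the nucleoporin gene Pom121 with responses of 0.05 and -1.07, and the lipoprotein receptor gene Scarb1 with -0.37 and -1.07.

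Several housekeeping functions had little response to lose. The 25 cytosolic ribosomal protein genes had medians of -0.03 and 0.02, the 23 aminoacyl-tRNA synthetases 0.10 and 0.11, and the 34 proteasome subunits -0.17 and 0.04. None of the ribosomal protein or synthetase genes had a difference past 2-fold, and 1 proteasome subunit, Psmc6, did, at 1.11. Ribosome biogenesis differed from them, since 8 of its 32 genes were past 2-fold lower in control cells, 7 of them lost. Nop58, a core protein of box C/D particles, read 10.07 and 8.75 in control cells and 9.76 and 10.16 in miR-155 cells. The 38 reported targets of miR-155 had medians of -0.09 and -0.04, with 2 differences past 2-fold upward and 4 downward. Over all genes above the floor 6.63% were past 2-fold upward and 4.64% downward, and whether the targets differ from them was not tested. Fos and Fosl2, described above, were both in that list and had differences of -1.82 and -2.21, and Ikbke had 1.82.

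**Figure D5:**
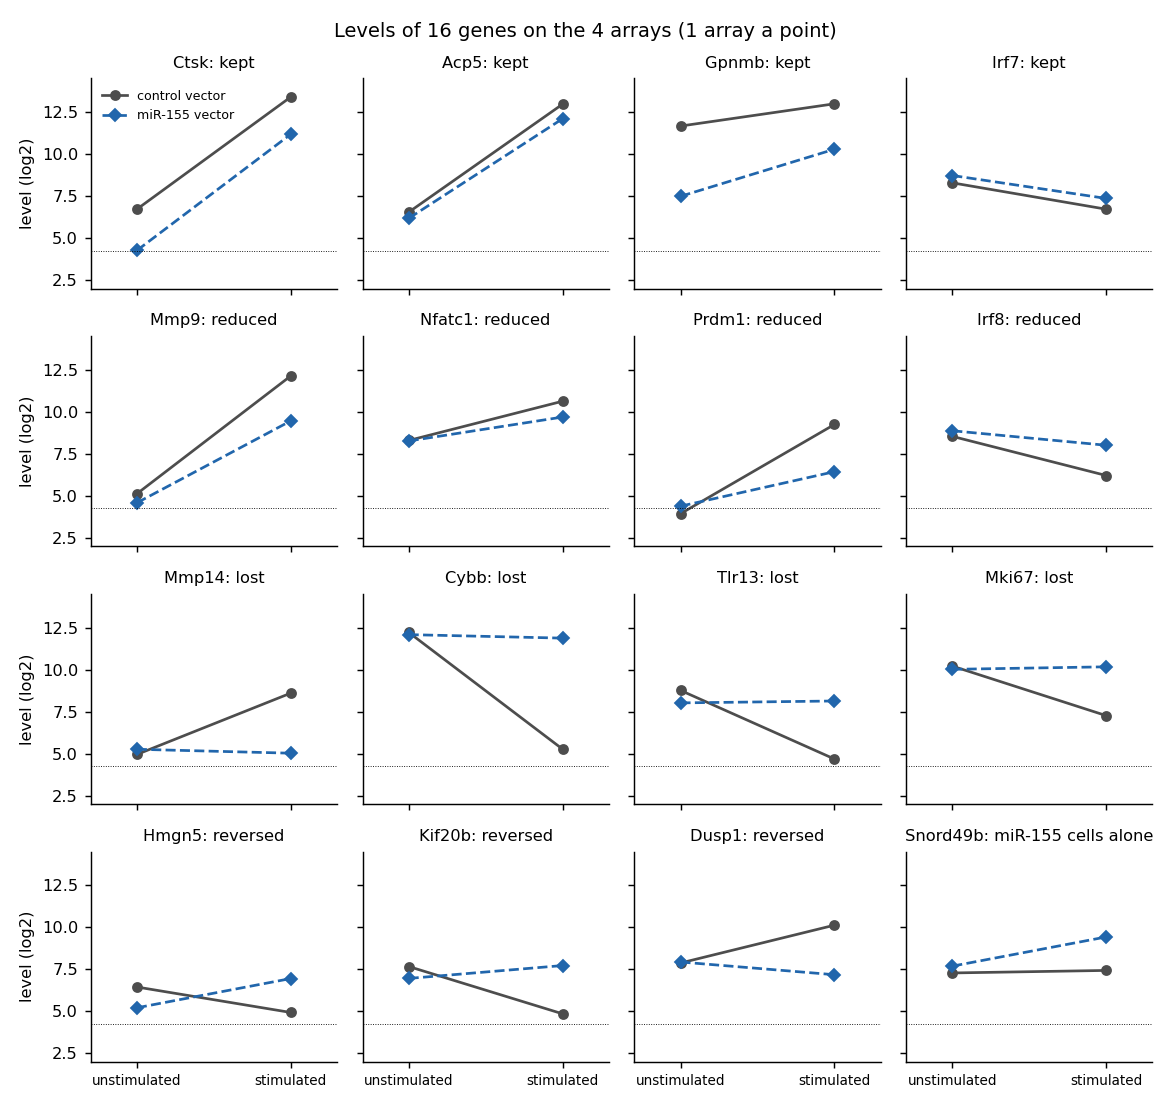
Level (log2, y axis) of 16 genes on the 4 arrays, unstimulated and stimulated, with circles for the control vector and diamonds for the miR-155 vector; each point is 1 array and the dotted line is the floor of 4.25. The lines of Ctsk and Acp5 run nearly parallel, that of Cybb drops from 12.21 to 5.26 in control cells alone, and those of Hmgn5 and Dusp1 cross.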

How the data were processed

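RNA from 4 cultures was hybridised to Affymetrix Mouse Gene 1.0 ST arrays, 1 array a group. The deposited values are log2 expression values made by the authors. The submitters' processing notes name RMA and Partek. Each version, like the genome build, is not given in the sources used here. Nothing pairs the cultures. Arrays give no read depth.

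Of 35557 probe sets, 21789 had 1 symbol, 1621 several and 12147 none, and 21698 gene IDs matched the RefSeq table (GRCm38.p6), with 0 symbols changed. The brightest probe set by mean stood for each gene. Differences of log2 values were taken as described in the report, with no test, since 0 residual degrees of freedom are left. Where a value lay below the floor, a fold is the brighter value against the floor. Members of 52 gene lists, the classes and the named genes were chosen with earlier results of these data known. Named were the 12 highest and 12 lowest differences among genes with all 4 values above the floor, up to 10 kept and 10 lost (the lost under the same limit) and 8 reversed genes in each direction, up to 8 genes that responded with miR-155 alone or differed without stimulation alone, in each list 4 members with the largest difference and 2 with the largest retained share, and 14 preset genes. The group of small nucleolar RNA genes was formed after seeing the values. On simulated data with 13561 genes the step recovered 50 of 50 genes in each class. The simulated control responses were all far past 2-fold, the shares lay well inside each class and the noise was below that of the receptor probe sets. In the data 377 of the 777 higher and 487 of the 939 lower genes had control responses of only 1 to 1.5 (log2). The simulation thus checked the code and not how surely genes near a limit are classed. Alternatives covered normalization, floor, probe set, threshold and class rule. Python 3.11.15, numpy 2.4.6, pandas 2.3.3, statsmodels 0.14.6 and matplotlib 3.10.9 were used.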

Additional observations from a re-analysis of the deposited data

Results flagged for a closer look

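These 12 named genes stood out because their response to stimulation had opposite directions with the 2 vectors. With 1 array a group, the difference between the directions was not tested.

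Among genes lower in stimulated control cells and higher in stimulated miR-155 cells, the difference of the responses (log2, miR-155 minus control) was 3.62 for Dek, 3.58 for Kif20b, 3.54 for Smc2, 3.26 for Hmgn5 and 3.12 for Cenpe. It was 2.98 for Depdc1a, a mitotic protein whose second probe set gave 2.73, and 2.78 for Clec5a. It was 2.56 for Atrx, 2.34 for Hpgds, 2.13 for Lrrcc1, a centrosomal protein, and 1.96 for Wrn. Dusp1 was the opposite case at -3.01.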

How the results depend on the processing

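With 1 array a group no culture could be left out, and no paired analysis was possible because the labels give no replicate numbers. The 7 settings for the arrays were 3 other normalizations (quantile normalization again, columns centred on their medians, a lowess curve removed), no floor, a floor at the 99th percentile, values below the floor set to it, and the mean of all probe sets. Of the 181 named genes past 2-fold in the difference of the responses, 0 changed sign under these 7 settings, and 4 (Dcn, Il18rap, Il7r and Rbpj) came under 2-fold in at least 1. Of the 15 lists with a class, 11 had the same class under all 7 settings. The exceptions were the interferon regulatory factors and STATs, the matrix-degrading enzymes, the C-type lectins and the Toll-like receptors, whose control medians came under 1.5-fold in at least 1 setting, which leaves a list without a class. Of the 37 lists without a class, 4 gained one: the oxidase and lysozyme list became lost at the 99th percentile floor and after lowess, and at that floor the Fc gamma and complement receptors and the chemokine and leukotriene receptors became lost and the granulocyte and mast cell markers reduced.

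The count of reversed higher genes was 3 after quantile normalization, 2 with centred columns and 2 after lowess, and the count of genes lower in miR-155 cells alone was 7 after lowess. With a threshold of 1.5-fold, 1961 genes had a higher and 1885 a lower response in miR-155 cells. The higher genes were then split into 65 kept, 671 reduced, 925 lost and 12 reversed, the lower genes into 102 kept, 546 reduced, 1365 lost and 40 reversed, and 112 and 277 genes were higher and lower in miR-155 cells alone. Chosen on the mean of both responses, the higher genes gave 265 reduced, 85 lost and 0 reversed, and the lower genes 89 reduced, 230 lost and 3 reversed. With kept defined as past 2-fold in both vectors, 142 higher genes were kept and 134 reduced, and 111 lower genes were reduced. On the linear scale the sign of the difference of Gpnmb became -1, the sign turning in 12 of 306 named genes in all. The others, each under 2-fold in that difference, were Ctsk, Ccl3, Irf7, Oas3, Cmpk2, Cebpa, Cnpy3, Eno3, Ldb1, E2f2 and Cxcl10. In Tlr7, Prdm1, Ccr1, Cxcl16 and C5ar1, with a value below the floor, the size of the difference depends on what that value is taken to be.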
